A study of Mus musculus with 20 samples.

Results

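The genes described here are 9 components of plasminogen activation and of the cell-surface side of coagulation, measured in mouse kidney after ischemia and reperfusion. They are the plasminogen activators Plau and Plat, the urokinase receptor Plaur, the inhibitor Serpine2, the tissue factor gene F3, the anticoagulant receptors Thbd and Procr, and the protease-activated receptors F2r and F2rl1. They were picked by gene name, with earlier results of these data known, among the 27827 gene names of the array. All 9 were found and were well above background on each of the 20 arrays, so that none was lost to the filter on dim genes. RNA of whole kidneys from C57BL/6 mice was hybridised to 1-color Agilent arrays, with 4 arrays in each of 5 groups. For Control mice the methods describe no surgery, sham operation or treatment, so that no sham operation is known to stand beside the injured kidneys. IRI mice had both renal pedicles clamped for 45 minutes and were killed after 6 hours of reperfusion. IPC+IRI mice had, per the methods, a first clamping of 15 minutes followed 7 days later by the same injury. IRI+Hemin mice received Hemin, which induces heme oxygenase-1, at 25 mg/kg 24 hours before the same injury, and Hemin mice received the drug without ischemia. The mice were male and 8 to 12 weeks old per the methods, and no source used here says whether each array held RNA of 1 animal, so that a kidney stands below for the sample on 1 array.

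Plasminogen is cleaved to plasmin, the protease that dissolves fibrin, by urokinase (Plau) and by tissue-type plasminogen activator (Plat). Urokinase acts largely while bound to its receptor Plaur on the cell surface, and is a major plasminogen activator of kidney tubules and urine. Coagulation starts when tissue factor (F3) binds factor VII, and it leads to thrombin. Thrombin bound to thrombomodulin (Thbd) activates protein C, a reaction helped by the endothelial protein C receptor (Procr), and thrombin also signals to cells through the receptor PAR1 (F2r), whereas PAR2 (F2rl1) is cleaved by trypsin-like proteases.

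Values are given as log2 expression, the log2 of a gene's processed signal over the 75th percentile of its own array, so that 0 is the level of that percentile. A gene was called where its Benjamini-Hochberg adjusted p from limma, over all genes tested in that comparison, was below 0.05. Every slide carried the arrays of a single group, and slide and group therefore cannot be told apart in any comparison, and among the comparisons made only IRI vs Control stayed within 1 of the 3 scan days. The 75th percentiles of the arrays lay between 147 and 358 intensity units, and 57.4% to 67.4% of gene names were well above background. All markers of proximal tubule, thick ascending limb, collecting duct and podocytes were well above background in every group. Preconditioned kidney 1 (IPC+IRI replicate 1) stood low for several of the genes below and for endothelial markers, and results that rest on it are given with and without it.

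After IRI, 8 of the 9 genes were higher than in Control and none was lower. Among all 17719 genes tested in this comparison, 17.1% were called higher and 33.9% lower, that is 3023 and 6007 genes, against 1789 and 1394 with normexp background correction. The median difference of the 9 genes was 1.77 on the log2 scale, against -0.17 over all genes tested. Since the members were chosen with earlier results of these data known, their contrast with all genes is a description only. Plaur rose most, followed by F3, Thbd, Procr, Plat, F2rl1, F2r and Plau, and Serpine2 was the gene not called. Of the 9 genes, 6 were called higher in IPC+IRI vs Control, which uses the same Control arrays, and 7 in IRI+Hemin vs Hemin, and none was called lower in either. The shares of all genes called were 23.2% higher and 32.8% lower of 18352 in the former comparison (4266 and 6013 genes, against 6215 and 2056 without scaling between arrays), and 16.5% higher and 27.9% lower of 18634 in the latter (3068 and 5199 genes, against 1340 and 3561 without scaling and 2049 and 2295 with normexp).

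**Figure D1:**
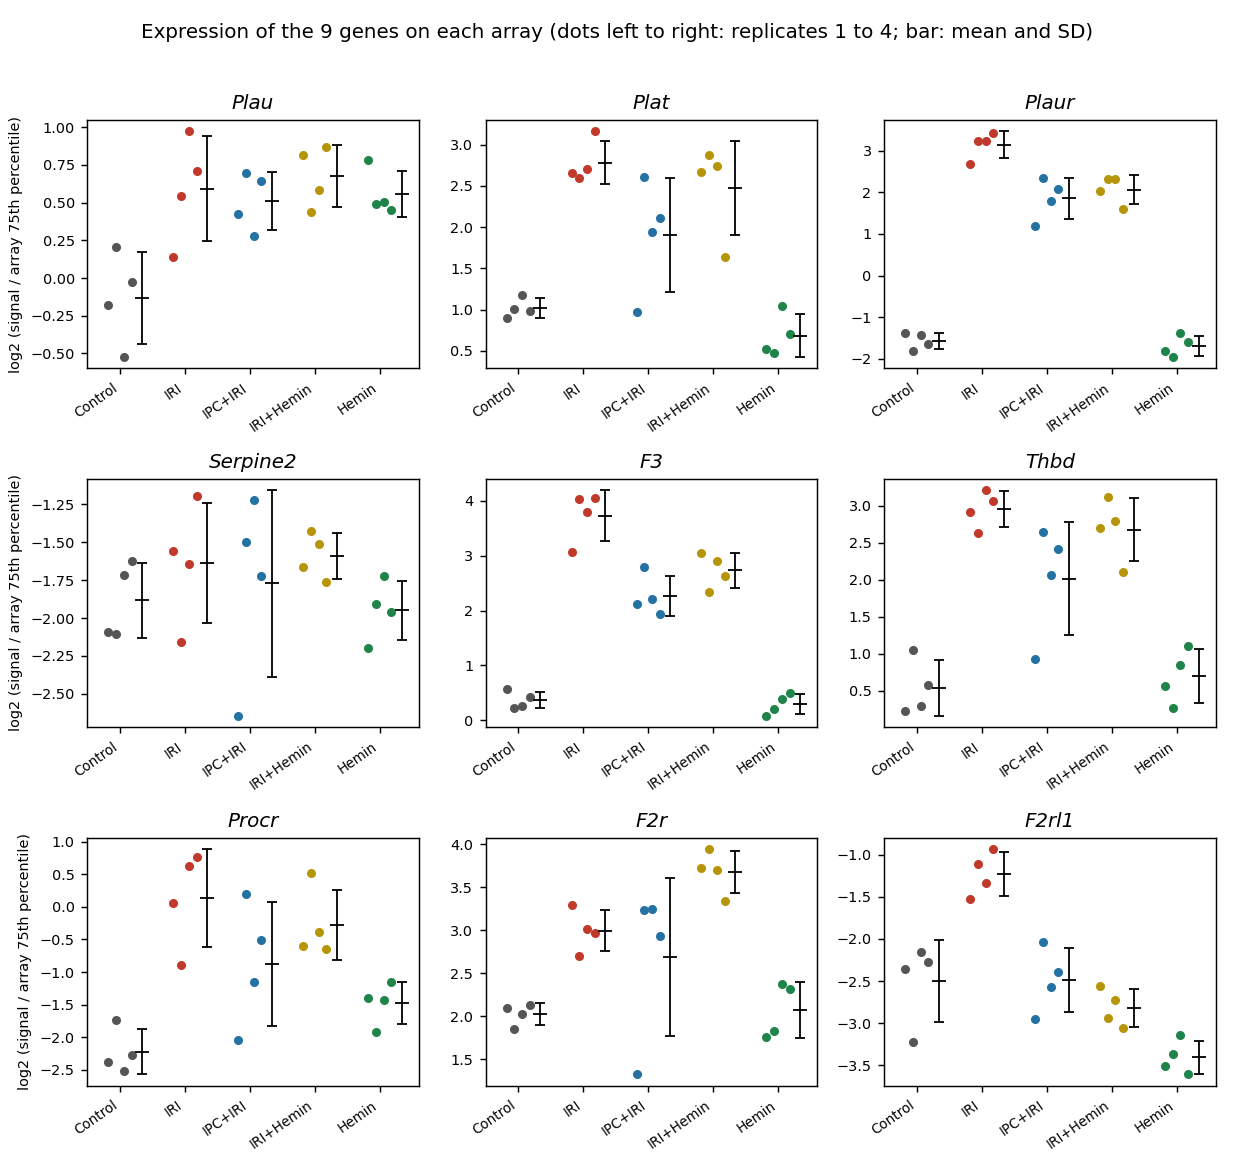
Log2 expression (signal over the array's 75th percentile) of the 9 genes on each of the 20 arrays, by group. Dots are arrays, in the order of replicates 1 to 4, and the bars give mean and SD of 4 arrays. Plaur and F3 separated all 12 injured kidneys from the 8 uninjured ones, while Serpine2 overlapped in all groups, and each panel has its own scale.

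Plaur encodes the receptor that holds urokinase on the cell surface. Its log2 expression in the 4 Control kidneys was -1.39, -1.81, -1.44 and -1.64, and in the 4 IRI kidneys 2.67, 3.23, 3.22 and 3.43. Preconditioned kidneys gave 1.20, 2.35, 1.80 and 2.08, and IRI+Hemin kidneys 2.04, 2.32, 2.32 and 1.59. Hemin alone gave -1.82, -1.95, -1.38 and -1.60. Every injured kidney lay above every uninjured one, and every IRI kidney lay above all 8 kidneys of IPC+IRI and IRI+Hemin. These groups are called the protected groups below, because the authors describe both treatments as protective. The difference IRI vs Control was 4.71 ± 0.23 (SE), 26.1-fold (adjusted p = 1.41e-10). Plaur was higher by 3.43 ± 0.23 in IPC+IRI vs Control (adjusted p = 6.7e-09) and by 3.75 ± 0.23 in IRI+Hemin vs Hemin (adjusted p = 4.22e-09). Its 2 probes gave 4.50 and 4.80 in IRI vs Control.

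Of the plasminogen activators, urokinase, Plau, gave -0.18, 0.20, -0.52 and -0.02 in Control and 0.14, 0.54, 0.97 and 0.71 in IRI. The IPC+IRI values of Plau were 0.43, 0.70, 0.28 and 0.64, and those of IRI+Hemin 0.82, 0.43, 0.58 and 0.87. In Hemin kidneys without ischemia Plau was 0.78, 0.49, 0.50 and 0.45. Control was thus the low group, and the 4 other groups overlapped with each other. Plau was higher in IRI vs Control by 0.72 ± 0.17 (1.65-fold, adjusted p = 0.0022), although the lowest IRI kidney lay within the Control range, and by 0.64 ± 0.18 in IPC+IRI vs Control (adjusted p = 0.00473). The 95% interval of IRI+Hemin vs Hemin ran from -0.25 to 0.49 (adjusted p = 0.598).

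The other activator, Plat, gave 0.89, 1.00, 1.18 and 0.98 in Control and 2.66, 2.60, 2.71 and 3.16 in IRI. IPC+IRI kidneys spread from 0.97 in replicate 1 through 1.94 and 2.12 to 2.61 in replicate 2. IRI+Hemin kidneys gave 2.67, 2.88, 2.74 and 1.64, and Hemin kidneys 0.52, 0.47, 1.04 and 0.70. All IRI and IRI+Hemin kidneys exceeded the uninjured ones, and preconditioned replicate 1 lay in the Control range. The rise was 1.77 ± 0.29 in IRI vs Control (3.41-fold, adjusted p = 7.07e-05) and 1.80 ± 0.29 in IRI+Hemin vs Hemin (adjusted p = 0.000103). In IPC+IRI vs Control it was 0.89 ± 0.29 (adjusted p = 0.0137), and the call was lost without IPC+IRI replicate 2, at 0.66 (adjusted p = 0.0605), and with the deposited matrix, at 0.78 (adjusted p = 0.0789). Without IPC+IRI replicate 1 this rise was 1.21 (adjusted p = 0.000646).

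Plat had 3 probes, at chr8:23886301-23886360, chr8:23892531-23892590 and chr8:23893092-23893152 of mm9, the first designed on another transcript record than the others. The first was well above background on 19 of 20 arrays and the others on all 20. Each probe rose in IRI vs Control, by 2.23, 1.86 and 1.70 in that order. They parted between the injured groups. In IRI+Hemin vs IRI the first probe was lower by a log2 difference of -0.999 (adjusted p = 0.00634 over 26485 probes), while the other probes gave -0.63 (adjusted p = 0.157) and -0.09 (adjusted p = 0.795). In IPC+IRI vs Control the second probe was not called (0.52, adjusted p = 0.223). In IPC+IRI vs IRI the first probe gave -0.27 (adjusted p = 0.437), the second -1.34 (adjusted p = 0.00523) and the third -0.63 (adjusted p = 0.058). The gene-level value of Plat therefore averages the signals of probes that did not give the same differences, and no test of the probes against each other was made.

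**Figure D2:**
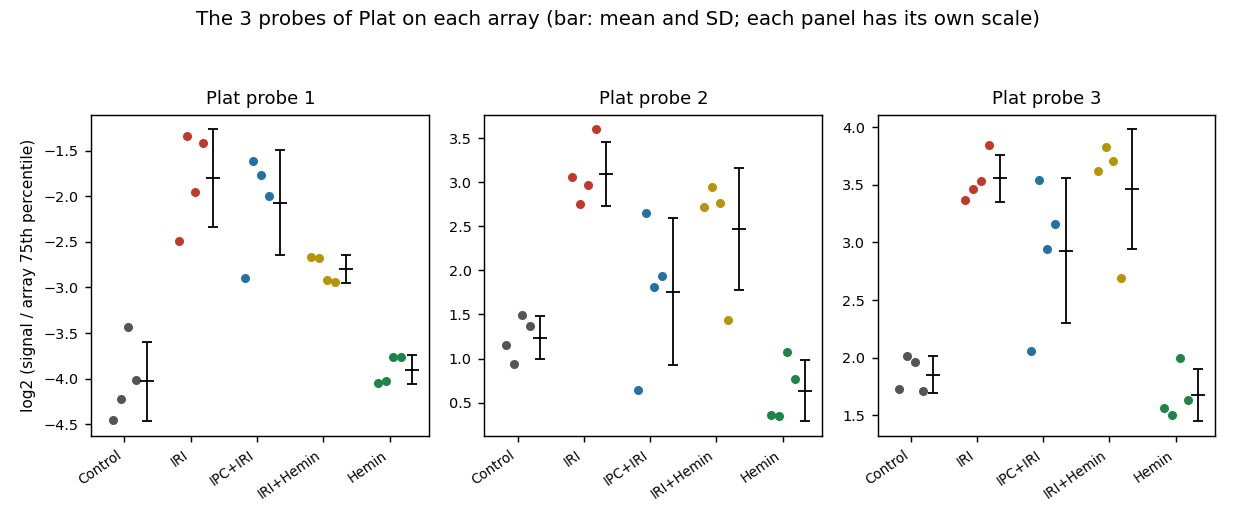
Log2 signal over the array's 75th percentile for the 3 probes of Plat on each array, by group, with mean and SD of 4 arrays. All probes were higher in IRI than in Control, by 2.23, 1.86 and 1.70, and the IRI+Hemin kidneys all sat below the IRI kidneys at probe 1, whereas 3 of 4 lay among them at probe 3. Scales differ between panels.

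Serpine2, protease nexin 1, inhibits urokinase, tissue-type activator and thrombin. Over all 20 arrays it stayed between -2.64, in IPC+IRI replicate 1, and -1.19, in IRI replicate 4, and each group overlapped with every other. No comparison called it in the fit to all arrays: IRI vs Control gave 0.25 with a 95% interval from -0.26 to 0.76 (adjusted p = 0.419), and IRI+Hemin vs Hemin 0.36 with an interval from -0.16 to 0.87 (adjusted p = 0.245). With only the arrays of those 2 groups in the fit, the latter difference was called (adjusted p = 0.0467). These intervals leave room for moderate differences, but not for ones of the size seen for Plaur or F3.

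F3 encodes tissue factor. It was 0.56, 0.23, 0.26 and 0.42 in Control and 3.06, 4.03, 3.80 and 4.04 in IRI. In IPC+IRI it was 2.11, 2.79, 2.21 and 1.94, in IRI+Hemin 3.05, 2.34, 2.90 and 2.64, and in Hemin 0.08, 0.20, 0.39 and 0.49. As for Plaur, the injured kidneys stood apart from all uninjured ones, and all 4 IRI kidneys lay above the 8 kidneys of the protected groups, narrowly so against IRI+Hemin replicate 1. The difference was 3.36 ± 0.21 in IRI vs Control (10.3-fold, adjusted p = 3.19e-09), 1.90 ± 0.22 in IPC+IRI vs Control (adjusted p = 1.87e-06) and 2.44 ± 0.22 in IRI+Hemin vs Hemin (adjusted p = 2.69e-07). Its 2 probes, which overlap in position, gave 3.31 and 3.41 in IRI vs Control.

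The windows around the annotated start of 5 members were found in RefSeq (GRCm38.p6), 250 bases before the start and 50 from it on. The 250 bases before the start are shown for Plaur and F3, the members that rose most, and for Serpine2, the member not called in these comparisons. Capitals mark every match, on either strand, of AP-1 (TGANTCA), EGR (GCGNGGGCG), the hypoxia core (ACGTG), SP1 (GGGCGG) and the KLF box (CACCC).
Plaur, chr7:24462233-24462482, plus strand: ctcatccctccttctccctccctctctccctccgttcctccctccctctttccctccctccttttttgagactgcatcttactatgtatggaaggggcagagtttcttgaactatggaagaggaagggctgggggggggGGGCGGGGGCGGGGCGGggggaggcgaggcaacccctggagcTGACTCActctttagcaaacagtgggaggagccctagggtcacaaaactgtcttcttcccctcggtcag
F3, chr3:121723287-121723536, plus strand: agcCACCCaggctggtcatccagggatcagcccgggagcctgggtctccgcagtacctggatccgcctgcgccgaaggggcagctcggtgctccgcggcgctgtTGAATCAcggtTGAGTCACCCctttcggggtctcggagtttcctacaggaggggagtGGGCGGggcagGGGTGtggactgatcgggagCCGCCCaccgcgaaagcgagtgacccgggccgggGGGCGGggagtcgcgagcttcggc
Serpine2, chr1:79858666-79858915, minus strand: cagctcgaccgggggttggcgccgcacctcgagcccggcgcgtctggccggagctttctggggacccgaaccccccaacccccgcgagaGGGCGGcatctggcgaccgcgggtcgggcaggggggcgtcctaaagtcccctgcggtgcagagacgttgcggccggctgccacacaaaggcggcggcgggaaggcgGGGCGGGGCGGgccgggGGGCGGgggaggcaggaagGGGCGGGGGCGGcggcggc
The AP-1 letters TGANTCA were present in 4 of the 5 windows, those of Plaur, F3, Procr and F2r, and in 7.81% of the 32851 windows of the table. Plaur held 1 such match, beginning 69 bases before the start, and F3 held 2, at 146 and 135 bases before it, the second sharing bases with a CACCC match. The match of Procr began 154 bases and that of F2r 204 bases before the start. SP1 letters, present in 35.7% of all windows, were found 3 times each in Plaur and F3 and 6 times in Serpine2. The EGR letters, in 5.55% of windows, occurred once in Plaur and once in Serpine2, both times sharing bases with SP1 matches, and CACCC, in 57.5%, occurred 4 times in F3. No window of the 5 held the hypoxia core, which 19.6% of all windows did. A match of letters is a description of these windows and does not show that a factor bound there. Plau, Plat, Thbd and F2rl1 had no entry.

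Thbd, thrombomodulin, gave 0.22, 1.04, 0.30 and 0.58 in Control and 2.91, 2.63, 3.21 and 3.07 in IRI. Its IPC+IRI values were 0.93, 2.64, 2.07 and 2.41, its IRI+Hemin values 2.69, 3.11, 2.80 and 2.10, and its Hemin values 0.57, 0.27, 0.85 and 1.11. IRI and IRI+Hemin kidneys were clear of the uninjured groups, and among the preconditioned kidneys replicate 1 lay in the Control range. Thbd rose by 2.42 ± 0.31 in IRI vs Control (5.34-fold, adjusted p = 5.93e-06), by 1.48 ± 0.31 in IPC+IRI vs Control (adjusted p = 0.000603) and by 1.98 ± 0.31 in IRI+Hemin vs Hemin (adjusted p = 7.84e-05). Without IPC+IRI replicate 1 the rise in IPC+IRI vs Control was 1.84 (adjusted p = 1.84e-05).

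The protein C receptor gene Procr gave -2.38, -1.73, -2.53 and -2.27 in Control and 0.06, -0.90, 0.62 and 0.76 in IRI. In IPC+IRI it spread over -2.05, 0.20, -1.16 and -0.50, in IRI+Hemin it gave -0.60, 0.52, -0.39 and -0.65, and in Hemin -1.40, -1.92, -1.43 and -1.16. The IRI kidneys were above all uninjured ones, with an SD of 0.75 in IRI and 0.96 in IPC+IRI. The rise was 2.36 ± 0.41 in IRI vs Control (5.15-fold, adjusted p = 0.000137) and 1.35 ± 0.41 in IPC+IRI vs Control (adjusted p = 0.01, and 1.74 with adjusted p = 0.00116 without IPC+IRI replicate 1). In IRI+Hemin vs Hemin it was 1.20 ± 0.41 (adjusted p = 0.0258), and without IRI+Hemin replicate 2 or Hemin replicate 2 the values 0.93 (adjusted p = 0.0944) and 1.05 (adjusted p = 0.0739) were not called. Nor was it called without scaling (1.12, adjusted p = 0.0869) or with the deposited matrix (1.14, adjusted p = 0.0501).

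F2r, the thrombin receptor PAR1, gave 2.10, 1.86, 2.02 and 2.14 in Control and 3.29, 2.71, 3.01 and 2.97 in IRI. It gave 3.72, 3.95, 3.70 and 3.35 in IRI+Hemin, 1.76, 1.83, 2.38 and 2.32 in Hemin, and 1.33, 3.24, 3.25 and 2.93 in IPC+IRI. F2r was the member whose highest group was IRI+Hemin with no overlap, all 4 of these kidneys lying above the 4 IRI kidneys. It rose by 0.97 ± 0.31 in IRI vs Control (1.95-fold, adjusted p = 0.014, not called with the deposited matrix, at 0.78 with adjusted p = 0.0675) and by 1.61 ± 0.31 in IRI+Hemin vs Hemin (adjusted p = 0.000486). In IPC+IRI vs Control the difference of 0.66 ± 0.31 was not called (adjusted p = 0.0777), and without IPC+IRI replicate 1 it was 1.11 and called (adjusted p = 7.69e-05).

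F2rl1, the receptor PAR2, showed another order of the groups. It was -2.36, -3.23, -2.16 and -2.27 in Control and -1.53, -1.11, -1.33 and -0.93 in IRI, so that every IRI kidney lay above every Control kidney. It was -2.95, -2.04, -2.58 and -2.40 in IPC+IRI, -2.56, -2.94, -2.72 and -3.06 in IRI+Hemin and -3.51, -3.37, -3.15 and -3.61 in Hemin. The IRI kidneys were also above all 8 kidneys of the protected groups, which overlapped with Control. F2rl1 rose by 1.28 ± 0.22 in IRI vs Control (2.42-fold, adjusted p = 0.00013), and IPC+IRI vs Control gave 0.01 with a 95% interval from -0.45 to 0.48 (adjusted p = 0.963). In IRI+Hemin vs Hemin the rise of 0.59 ± 0.22 was barely called (adjusted p = 0.0396), and it was lost in 6 of the 8 fits that left out 1 array of these groups, where adjusted p reached 0.106. The call was also lost with normexp (0.26, adjusted p = 0.0897), without scaling, with the percentile over bright probes, with the deposited matrix and without the filter on dim genes.

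Injured kidneys with and without preconditioning were compared in IPC+IRI vs IRI, groups that also differed in slide and scan day. Of the 9 genes 5 were lower and none was higher, where 17.8% of all 17668 genes tested were lower and 26.3% higher. F3 fell by 1.47 ± 0.21 on the log2 scale (2.76-fold, adjusted p = 5.5e-05), Plaur by 1.28 ± 0.23 (2.43-fold, adjusted p = 0.000256) and F2rl1 by 1.26 ± 0.22 (2.40-fold, adjusted p = 0.000243), in each case with no overlap between the groups. Thbd fell by 0.94 ± 0.31 (adjusted p = 0.0192) and Plat by 0.88 ± 0.29 (adjusted p = 0.0198), with overlap. Without IPC+IRI replicate 1 the count was 3: F3, Plaur and F2rl1 were still called, at -1.42, -1.06 and -1.11, whereas Thbd gave -0.58 (adjusted p = 0.0736) and Plat -0.56 (adjusted p = 0.0797). The call of Thbd was lost also without IRI replicate 3, at -0.86 (adjusted p = 0.0536), and that of Plat without IRI replicate 4, at -0.75 (adjusted p = 0.0625). Thbd and Plat were also no longer called with normexp (-0.67 and -0.64), without scaling (-0.63 and -0.56), with the deposited matrix (-0.81 and -0.60) or with only the compared arrays (adjusted p = 0.0546 and 0.0535), nor was Plat at its brightest probe (-0.63, adjusted p = 0.0601). F2rl1 was lost without scaling (-0.95, adjusted p = 0.0512). Procr, at -1.02 ± 0.41 (adjusted p = 0.0535), was called without IRI replicate 2 (-1.36, adjusted p = 0.0124) or without IPC+IRI replicate 2 (-1.37, adjusted p = 0.0107). It was barely called when only genes well above background on all arrays of both groups were tested (adjusted p = 0.0499). Without IPC+IRI replicate 1, however, Procr gave -0.63 (adjusted p = 0.202).

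Markers of endothelium, a cell type that expresses Thbd, Procr, Plat and F2r, moved in the same comparison. Of the 9 endothelial markers 6 were lower and none higher in IPC+IRI vs IRI, with a median difference of -0.66. Both values include IPC+IRI replicate 1, and none without it is given here. Their summed level, in multiples of the array's 75th percentile, was 17.3, 39.3, 29.1 and 29.4 in IPC+IRI replicates 1 to 4, from 34.1 to 39.7 in IRI, from 23.9 to 29.9 in Control, from 37.6 to 42.2 in IRI+Hemin and from 29.1 to 37.2 in Hemin. All 9 were well above background in every group. Among the preconditioned kidneys, replicate 1 had the lowest and replicate 2 the highest or nearly the highest values of Thbd, Procr, Plat and F2r, and replicate 1 the lowest and replicate 2 the highest endothelial sum. This order was not particular to these 4 genes: Plaur and F2rl1 were also lowest in replicate 1 and highest in replicate 2, Serpine2 was lowest in replicate 1 and F3 highest in replicate 2. The summed level of 8 markers of fibroblasts, pericytes and smooth muscle had the same extremes, at 10.3 in replicate 1 and 22.0 in replicate 2 against 20.7 and 16.5 in the others. In whole-kidney RNA, fewer cells of a type and less RNA per cell cannot be told apart, and the part of the endothelial markers in the differences of these 4 genes was not tested. In IRI vs Control 3 endothelial markers were higher and 2 lower with a median difference of 0.21, and the endothelial sum was higher in every IRI kidney than in every Control kidney.

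**Figure D3:**
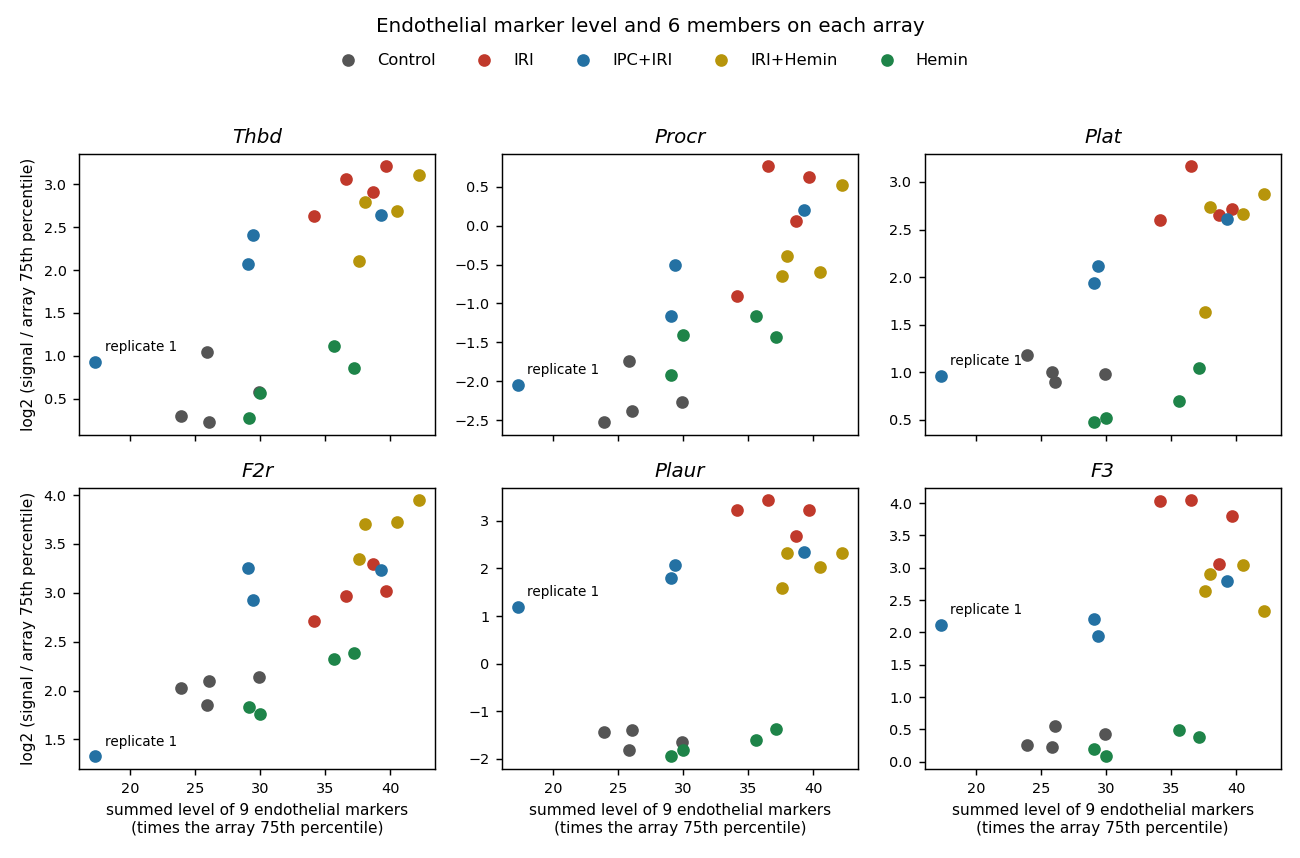
Log2 expression of 6 members (vertical) against the summed level of 9 endothelial markers in multiples of the array's 75th percentile (horizontal), 1 dot per array and colors for groups. IPC+IRI replicate 1, marked, has the lowest endothelial sum, 17.3, and low Thbd, Procr, Plat and F2r, while its Plaur and F3 stay far above the uninjured kidneys.

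Plaur is also expressed by leukocytes. The summed level of 9 neutrophil markers ranged from 0.325 to 0.626 in Control, from 2.65 to 8.69 in IRI, from 6.55 to 20.3 in IPC+IRI, from 2.25 to 10.1 in IRI+Hemin and from 0.557 to 1.68 in Hemin. Most of the sum in the injured groups came from S100a9, with mean levels of 3.89 in IRI and 9.38 in IPC+IRI, followed by S100a8 at 0.839 and 1.18. In IRI vs Control 3 of these markers could be tested and all 3 were higher. In IPC+IRI vs IRI, where Plaur and F3 were lower, 1 of 7 tested neutrophil markers was higher and none was lower. The summed level of 9 monocyte and macrophage markers, cells that also express Plaur and F3, was 7.18 to 8.45 in Control and 12.5 to 14.1 in IRI, with 3 of 9 markers higher, Cd14, Cd68 and Ly6c1, and 1 lower, Cx3cr1. Most of the difference in the sum came from Cd14, whose mean level went from 0.470 to 3.41, and Ly6c1, from 4.03 to 5.84, while Adgre1 gave a log2 difference of -0.86 (adjusted p = 0.112). Whether the Cd14 and Ly6c1 signal came from monocytes and macrophages or from other kidney cells was not tested. The sum of these 9 markers was 5.58 to 13.6 in IPC+IRI, lowest in replicate 1, 10.4 to 15.4 in IRI+Hemin and 5.42 to 7.17 in Hemin. Of 8 such markers tested in IPC+IRI vs IRI, 2 were lower, Cd68 and Ly6c1, and 1 was higher. The higher one was Adgre1, with a mean log2 expression of -3.07 in IRI and -1.40 in IPC+IRI. In IRI+Hemin vs IRI none of 8 was called. Of 6 tested platelet and megakaryocyte markers 3 were higher in IRI vs Control and 4 higher and 1 lower in IPC+IRI vs Control, and of 7 tested lymphocyte markers 5 were lower in IRI vs Control. The part of these cells in the differences of Plaur and F3 was not tested.

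The comparison IRI+Hemin vs IRI, which shares its IRI kidneys with the preceding one, sets injured kidneys with Hemin beside those without, again on different slides and scan days. F2rl1 fell by 1.59 ± 0.22 on the log2 scale (3.02-fold, adjusted p = 3.41e-05), Plaur by 1.07 ± 0.23 (2.11-fold, adjusted p = 0.00106) and F3 by 1.00 ± 0.21 (2.00-fold, adjusted p = 0.00121), each with no overlap. These 3 of 9 genes were the ones called lower and none was called higher, beside 18.1% lower and 26.3% higher among 17835 genes. F2r was higher by 0.68 ± 0.31 with no overlap of the groups, short of the threshold (adjusted p = 0.0784). Its exact two-sided permutation p of 0.0286 is the smallest that 4 against 4 arrays allow, and restates the lack of overlap. F2r passed the threshold when the fit held only the compared arrays (adjusted p = 0.0124), with normexp (0.93, adjusted p = 0.0162), without scaling (1.05, adjusted p = 0.0433) and with the deposited matrix (0.89, adjusted p = 0.0448). For Thbd the interval ran from -0.92 to 0.37 (adjusted p = 0.49), and for Plat from -0.91 to 0.30 (adjusted p = 0.413). With normexp background correction F3 gave -0.60 and was no longer called (adjusted p = 0.0592), and without scaling between arrays neither Plaur (-0.71, adjusted p = 0.129) nor F3 (-0.64, adjusted p = 0.136) was.

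**Figure D4:**
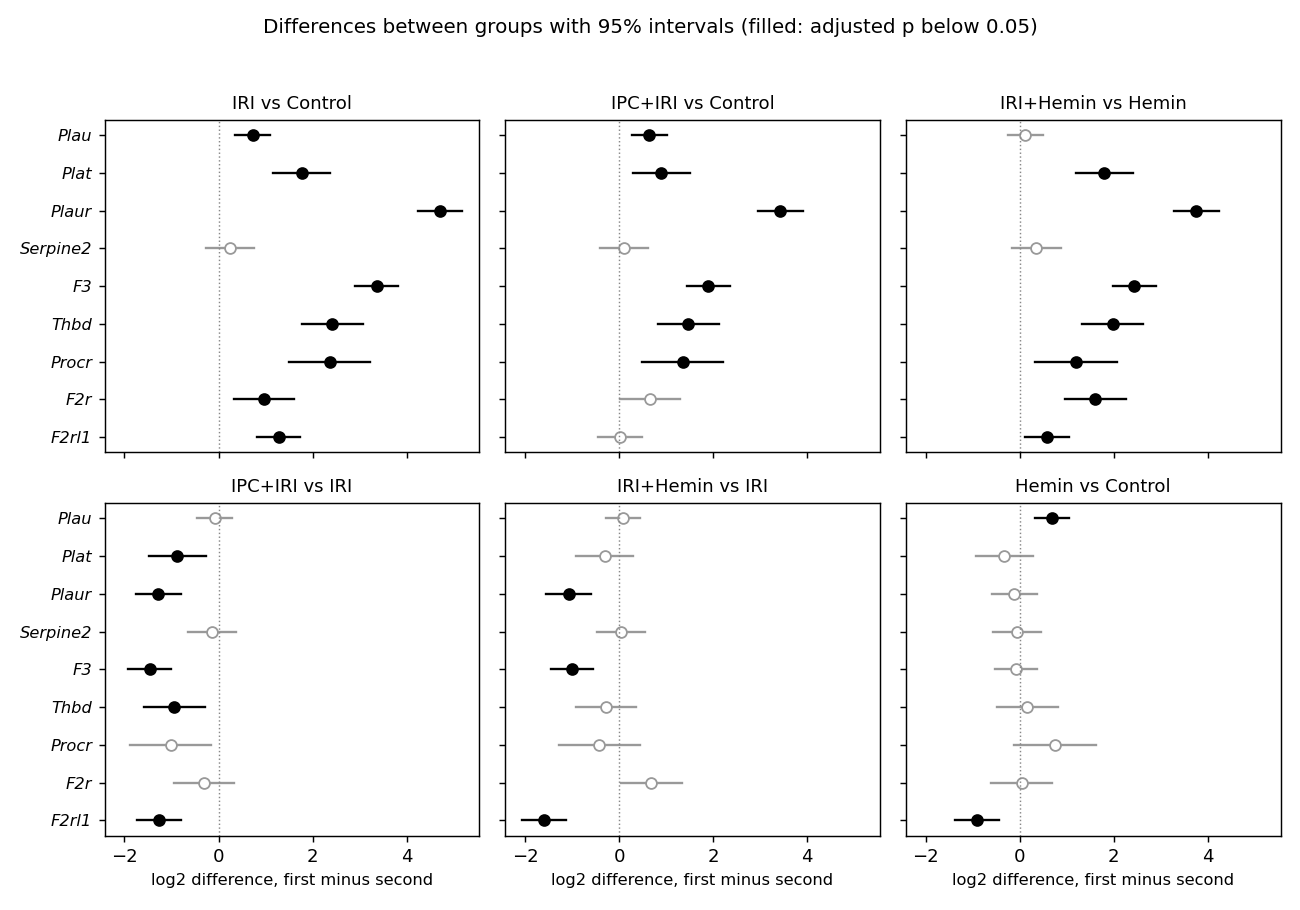
Log2 differences (first group minus second, horizontal) of the 9 genes in 6 comparisons, with 95% intervals from limma; filled dots have adjusted p below 0.05. The rises of Plaur in the upper row are 4.71, 3.43 and 3.75, and Plaur, F3 and F2rl1 are lower in both protected groups than in the IRI group, whose arrays the 2 panels share.

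Hemin without ischemia was compared with Control, which was on another slide and scan day, and 7 of the 9 genes were not called. Of the 9 genes 1 was higher, Plau by 0.69 ± 0.18 (1.61-fold, adjusted p = 0.00595), and 1 was lower, F2rl1 by a log2 difference of -0.91 ± 0.22 (adjusted p = 0.00462), where 18.5% of 18579 genes were higher and 17.6% lower. The 4 Hemin kidneys lay above all Control kidneys for Plau, and for F2rl1 they overlapped with Control replicate 2. Plaur gave -0.12 with an interval from -0.60 to 0.36, and F3 -0.08 with an interval from -0.53 to 0.37. Procr gave 0.75 ± 0.41 (adjusted p = 0.165). It was called with only the compared arrays (adjusted p = 0.0214) and without scaling between arrays (1.32, adjusted p = 0.0264). Without scaling between arrays, which moved the median of all genes in this comparison from 0.06 to 0.62, F2rl1 gave -0.34 and was not called (adjusted p = 0.45), and Plaur and F3 turned to 0.45 and 0.49. Of the 2 probes of Plau, the second gave 0.71 (adjusted p = 0.00504) and the first 0.43 (adjusted p = 0.103).

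Whether ischemia changed the genes by another amount after Hemin was tested as an interaction, the difference IRI+Hemin vs Hemin minus IRI vs Control. None of the 9 genes was called, where 7.79% of 19064 genes were (1486 genes, against 117 higher and 29 lower with normexp, and 321 and 84 without scaling). At an unadjusted p below 0.05 stood 4 of the 9 genes, Plaur, F3, Plau and F2rl1, beside 22.3% of all genes. The interaction was -0.96 ± 0.32 for Plaur (adjusted p = 0.0784) and -0.92 ± 0.31 for F3 (adjusted p = 0.0729). Without IRI replicate 1 both were called, at -1.11 (adjusted p = 0.0452) and -1.15 (adjusted p = 0.015). With only the compared arrays Plaur was called as well (adjusted p = 0.0455). The lower F2rl1 in IRI+Hemin than in IRI stood beside a lower F2rl1 in Hemin than in Control, and its interaction was -0.69 ± 0.32 (adjusted p = 0.205).

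Other genes of fibrinolysis and coagulation were taken from 8 lists with 40 genes, of which 34 were tested in IRI vs Control. There 4 of 34 were higher and 7 lower, both smaller shares than the 17.1% and 33.9% of all genes, with a median difference of -0.05. The counts within single lists rest on few genes and are given as a description. Of 6 genes for plasminogen and its binding proteins 3 rose in IRI vs Control: S100a10 by 2.23 and Anxa2 by 1.94, which together form a plasminogen-binding complex at the cell surface, and the plasma glycoprotein gene Hrg by 0.77.

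Within the tissue factor and common pathway 3 of 6 genes were lower in IRI vs Control and none was higher. The gene of factor VII, F7, fell by 1.87 on the log2 scale, and the tissue factor pathway inhibitor genes Tfpi and Tfpi2 fell by 0.77 and 1.43, while F3 itself was higher by 3.36. Without Control replicate 2 the fall of Tfpi was smaller, at -0.48 (adjusted p = 0.0234). In the contact and intrinsic pathway 2 of 4 tested genes fell, F9 by 1.87 and Klkb1 by 0.49. None of the 6 genes of fibrin, factor XIII and von Willebrand factor and none of the 5 tested anticoagulant proteins was called. The factor XIII gene F13a1 had the largest difference of the 34 genes, 2.39 ± 1.05 (adjusted p = 0.0666), with only 1 of 4 Control arrays well above background. Of the urokinase receptor partners, Mrc2, an endocytic collagen receptor, was lower (-0.74, and -0.67 with adjusted p = 0.0506 without IRI replicate 2), and of the membrane proteases St14 was higher (0.73) and Prss8 lower (-0.67). The protein C gene Proc itself gave 0.22 with an adjusted p of 0.328. For the other comparisons, the counts among the tested genes of the 8 lists follow, with the shares of all genes tested in brackets. IPC+IRI vs Control had 8 of 33 higher and 12 lower (23.2% and 32.8%), and IRI+Hemin vs Hemin 9 of 36 higher and 9 lower (16.5% and 27.9%). IPC+IRI vs IRI had 5 of 33 higher and 8 lower (26.3% and 17.8%), and IRI+Hemin vs IRI 8 of 34 higher and 5 lower (26.3% and 18.1%). Hemin vs Control had 2 of 35 higher and 5 lower (18.5% and 17.6%), and the interaction 3 of 36 higher and 1 lower (7.79% in either direction).

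**Figure D5:**
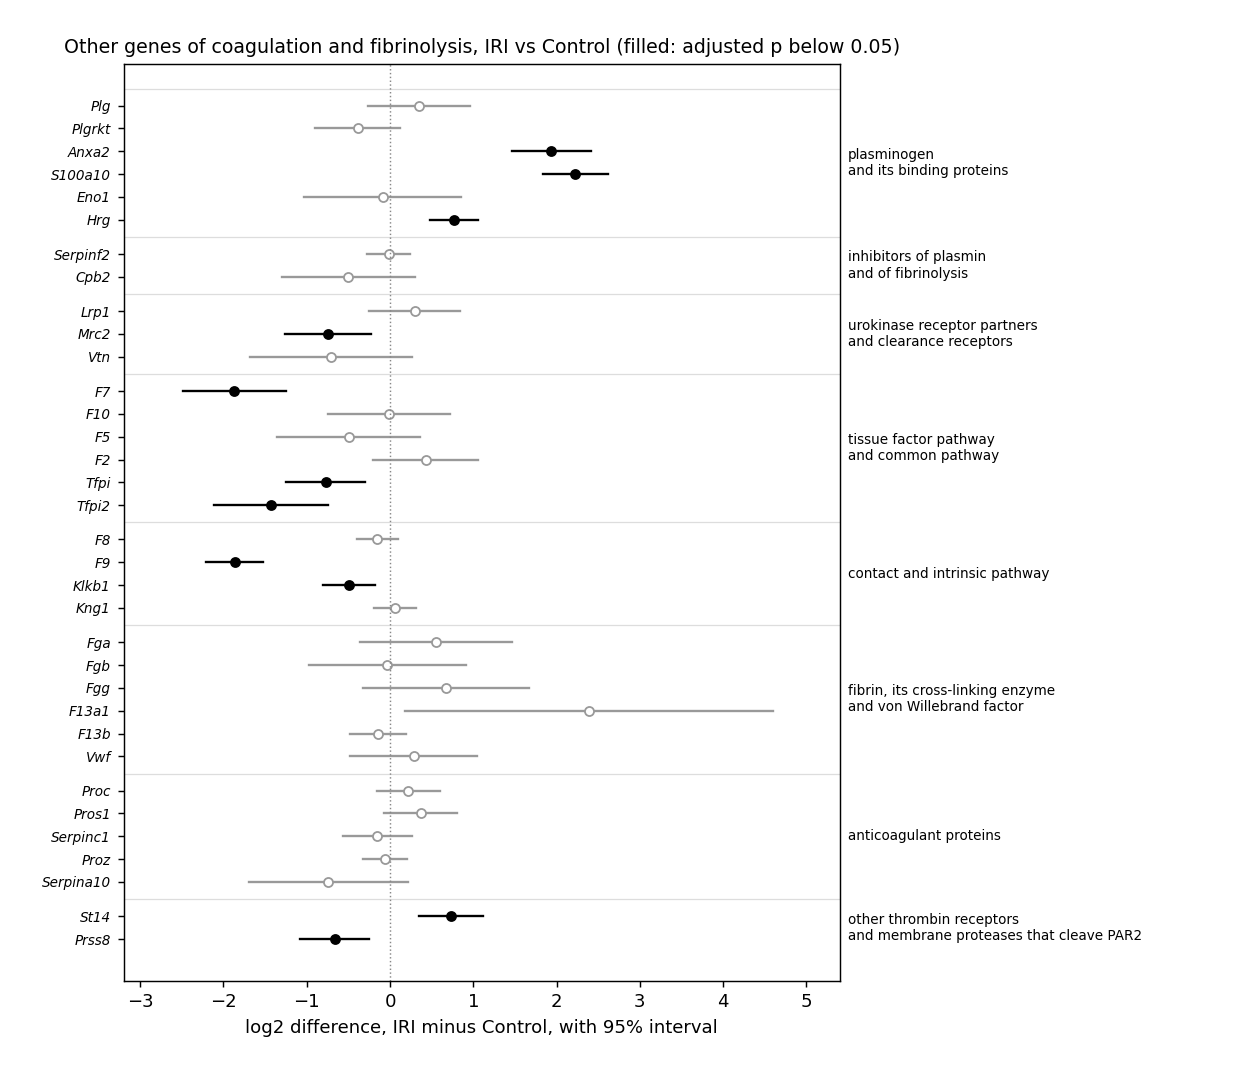
Log2 differences in IRI vs Control, with 95% intervals, of the 34 tested genes of the 8 pathway lists; filled dots have adjusted p below 0.05. S100a10 and Anxa2, at 2.23 and 1.94, lie farthest to the right among the filled dots, and F7, Tfpi, Tfpi2 and F9 lie to the left.

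The genes most like each member were sought by Pearson's r of log2 expression over the 20 arrays among 17720 genes. The arrays fall into 5 groups, so these coefficients mainly follow the group means and are given as a description. Plaur was most like Pvr (r = 0.9929) and Etf1 (0.988). F3 was most like Bcl10 (0.9752), Plaur itself (0.9746) and Rusc2 (0.9734). Thbd was followed by 1300014I06Rik (0.9711), Gch1 (0.9696) and Eif4ebp1 (0.9674), and Procr by Tm4sf1 (0.9491), Thbd (0.9296) and an entry with no gene symbol (0.9277). Plat had Cd68 (0.963), a macrophage marker, Rasip1 (0.9616) and Gch1 (0.959) nearest to it. The nearest genes of F2r were Tcf23 (0.9359), Entpd1 (0.9317) and Pmp22 (0.9284), and those of F2rl1 E430028B21Rik (0.9531), Siah1a (0.9491) and EG545091 (0.949). For Plau and Serpine2, which varied least between the groups, the highest coefficients were 0.8321 with Rnf138 and 0.8338 with Rftn1.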

How the data were processed

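Total RNA of 20 kidney samples was labeled with Cy3 and hybridised by the authors to Agilent 1-color mouse arrays; per the labels, signals were extracted with Agilent Feature Extraction 9.5.3.1. The deposited scanner files hold processed signal intensity, already background-subtracted, and the deposited matrix holds log2 values of the same signals, not scaled between arrays (100% of the values of single-spot probes within 0.001). Of that matrix 18.1% is blank, so that fewer values and genes enter the fits with it. Intensity has no counting depth; the number of arrays limits precision. Here, control and outlier spots were left out, saturated spots kept, spots of a probe averaged, signals divided by the array's 75th percentile, probes of a gene name averaged, and log2 taken. Genes were tested with at most 1 of 8 values missing and at least 3 of 4 arrays of either group well above background. limma 3.58.1 in R 4.3.3 fitted 5 group means to all 20 arrays (15 residual degrees of freedom), without a fold cutoff. The methods used SAM with its delta chosen to give no estimated false discoveries; limma took its place here. The fit was tested on simulated data. P-values measure the spread between these samples, which may be partly technical. Probe positions are on mm9 and promoter windows, read with Python 3.11.15, on GRCm38.p6. The text names all 9 members, the called genes of each pathway list in IRI vs Control (at most 3, by size of difference), and the 3 genes most like each member; for Plau and Serpine2 only the first and for Plaur the first 2 are printed, and Proc, F13a1 and the macrophage markers were picked after their values were seen. A list of 3 further genes is not reported here. The members and lists were chosen with earlier results of these data known. Alternatives were background correction by normexp (offset 50), other scalings, filters and probe summaries, the deposited matrix, only the compared arrays, the replicate block and leaving out each array, which was added for the called pathway genes after seeing the data.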

Additional observations from a re-analysis of the deposited data

Results flagged for a closer look

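In 3 of the 45 sets of 4 arrays examined, 9 genes by 5 groups, 1 array lay far from its group by Dixon's criterion, which chance meets in about 1 of 20 sets. F2r in IPC+IRI replicate 1 was 1.33, against 2.93 to 3.25 in the other preconditioned kidneys, and the endothelial marker sum of that array was also the lowest of its group. Plat in IRI+Hemin replicate 4 was 1.64, against 2.67 to 2.88 in the others. Plau in Hemin replicate 1 was 0.78, against 0.45 to 0.50 in the others.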

How the results depend on the processing

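The rises of 8 members in IRI vs Control were called in every fit that left out 1 array, and the alternative fits ended 1 of these calls, F2r with the deposited matrix (0.78, adjusted p = 0.0675). The 5 members lower in IPC+IRI vs IRI were 3 with normexp, the deposited matrix (8 members tested) or only the compared arrays and 2 without scaling, and 3 to 6 with 1 array left out. Procr was gained with the filter asking for all arrays of both groups well above background. In IRI+Hemin vs IRI 1 member was higher (main 0) with normexp, without scaling, with the deposited matrix (8 members tested) or with only the compared arrays, and the count of lower members was 1 without scaling. In Hemin vs Control 2 members were higher without scaling or with only the compared arrays, and 0 were lower without scaling. The 6 higher members in IPC+IRI vs Control were 5 with the deposited matrix, 7 without scaling, where F2r was gained, and 5 to 7 with 1 array left out. In IRI+Hemin vs Hemin the 7 higher members were 5 without scaling or with the deposited matrix, 8 with only the compared arrays and 5 to 7 with 1 array left out. The interaction was called for 1 member, Plaur, with only the compared arrays and for 0 to 2 with 1 array left out. Without scaling the median of all genes moved from 0.09 to 0.41 in IPC+IRI vs IRI, where 5910 genes were higher and 603 lower (main 4641 and 3152), from 0.08 to 0.45 in IRI+Hemin vs IRI (6539 and 620, main 4695 and 3233), and in Hemin vs Control 8824 were higher and 490 lower (main 3442 and 3271). The balance of higher to lower genes turned with normexp in IPC+IRI vs IRI (2331 and 2438) and IRI+Hemin vs IRI (2627 and 3268), and in Hemin vs Control with the percentile over bright probes (2329 and 4303, against 1974 and 1718 with normexp). It turned also without the filter on dim genes in IRI+Hemin vs IRI (4746 and 5624) and Hemin vs Control (3301 and 5020). In Hemin vs Control the mean of log2 values over probes turned it as well (2823 and 3212).

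Signs turned only for values called under neither setting. In IPC+IRI vs Control, Serpine2 was -0.059 with normexp and -0.026 with the deposited matrix, and F2rl1 -0.14 with normexp, -0.098 with the percentile over bright probes and -0.036 with the deposited matrix. With normexp, Plau was -0.017 in IRI+Hemin vs Hemin and, in IRI+Hemin vs IRI, Plau was -0.0088, Serpine2 -0.16 and Thbd 0.11. Without scaling, IPC+IRI vs IRI gave 0.23 for Plau, 0.18 for Serpine2 and 0.0086 for F2r, IRI+Hemin vs IRI 0.060 for Plat and 0.087 for Thbd, Hemin vs Control 0.23 for Plat, 0.45 for Plaur, 0.50 for Serpine2 and 0.49 for F3, and the interaction -0.17 for Plat and -0.090 for Serpine2. With the deposited matrix, Plau was 0.055 in IPC+IRI vs IRI and Plat 0.038 in IRI+Hemin vs IRI. Quantile normalization gave 0.046 for Serpine2 and -0.088 for F2r in Hemin vs Control and an interaction of -0.028 for Serpine2, and the percentile over bright probes -0.072 for F2r in Hemin vs Control. The mean of log2 values over probes gave an interaction of -0.36 for Plat. In Hemin vs Control, probe 1 alone gave 0.13 for Plat and 0.029 for F3. With 1 array left out, values ran from -0.071 to 0.40 for Serpine2 and -0.23 to 0.17 for F2rl1 in IPC+IRI vs Control; -0.23 to 0.045 for Plau, -0.32 to 0.16 for Serpine2 and -0.50 to 0.15 for F2r in IPC+IRI vs IRI; -0.068 to 0.21 for Plau and -0.13 to 0.20 for Serpine2 in IRI+Hemin vs IRI; -0.14 to 0.023 for Serpine2 and -0.059 to 0.15 for F2r in Hemin vs Control; and -0.11 to 0.31 for Plat and -0.061 to 0.26 for Serpine2 in the interaction. The cause was not tested.

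With the replicate block, 6 members were higher in IRI+Hemin vs Hemin, F2rl1 being lost at 0.59 (adjusted p = 0.057), and no other call changed; the deviations of same-numbered arrays correlated at 0.0496 to 0.149 in IRI vs Control, with 3 of 4 pairs over 0.1, and at -0.32 to 0.13 in the other comparisons, so the numbers were not treated as pairs. Slide as a random block could not be fitted, since each slide held 1 group.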
